A study of Mus musculus with 4 samples.

Results

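The genes described here are 10 immediate early genes of the mouse colon: Fos, Fosb, Fosl1, Jun, Junb, Egr1, Egr2, Egr3, Atf3 and Ier3. They were taken by name, as every non-control spot that carries 1 of these gene names on the arrays. The 10 genes had 1 probe each and 19 spots per array, out of 30199 gene names. Of these, 9 genes were measured well above background on all 4 arrays, and Egr3 on none.

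The colons came from C57BL/6 mice that carried both copies of Pla2g10 (WT) or had lost both (Pla2g10 -/-, named X-KO in the labels and KO here). Pla2g10 is the gene of the secreted group X phospholipase A2, which frees fatty acids from membrane lipids. They were given dextran sulfate sodium (DSS), a polymer that injures the lining of the colon, at 1% (w/v) in the drinking water and sampled at day 7, or received none (naive). The 4 groups were KO DSS, WT DSS, KO naive and WT naive, with 1 single-colour array each, hybridised with colon RNA pooled from 3 mice. The labels give an age of 9 weeks and male sex under swapped tags, and 8 weeks in the growth protocol. A pool of 3 mice on 1 array leaves no spread between mice, so a difference between any 2 arrays carries no p-value. Whole colon tissue mixes epithelium, stroma, muscle and leukocytes, and in such RNA fewer cells of a type and less RNA per cell cannot be told apart.

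Immediate early genes are transcribed within minutes of a signal at the cell surface and need no new protein synthesis for it. Kinases of the MAPK family phosphorylate factors that already sit on these genes, and the messages are short-lived. Fos and Jun proteins pair to form the AP-1 transcription factor, Egr proteins are zinc finger factors that share a GC-rich site, Atf3 is a stress-induced bZIP protein, and Ier3 is a stress-induced regulator of survival that is not itself a DNA-binding factor. In the intestine, AP-1 and Egr genes are known to respond to injury, growth factors and cytokines, and also to the handling of tissue before RNA is preserved.

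The deposited signal of each spot was divided by the 75th percentile of its array, giving a relative signal in which 1 equals that percentile. Non-control spots well above background made up 67.7% to 70.4% of an array, and the median SD among repeat spots was 0.0619 to 0.0718 in log2 units. All 10 colonocyte markers listed for a check of the tissue were well above background on every array. Pla2g10 checked the genotype labels: its relative signal was 0.997 in KO DSS against 19.1 in WT DSS colon, and 1.70 in KO naive against 15.9 in WT naive colon. The sources used here do not say which stretch of Pla2g10 was removed.

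The regulatory sequence in front of these genes was read from RefSeq (GRCm38.p6), whose table held 7 of the 10 members in 11 windows of 250 bases before a transcription start. Fosl1, Egr1 and Egr3 had no window there. The promoters of Fos and Ier3 and a stretch of the Egr2 promoter are printed because these genes stand for the different patterns described below: lower in KO than in WT colon under DSS, higher in KO than in WT colon under DSS, and higher with DSS in both genotypes. Capitals mark matches, on either strand, to the motifs searched.
Fos, chr12:85473640-85473889, plus strand: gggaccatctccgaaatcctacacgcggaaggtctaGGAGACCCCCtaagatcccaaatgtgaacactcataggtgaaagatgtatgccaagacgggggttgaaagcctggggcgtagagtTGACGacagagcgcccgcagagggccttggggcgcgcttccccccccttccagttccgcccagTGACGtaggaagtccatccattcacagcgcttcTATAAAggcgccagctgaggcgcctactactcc
Ier3, chr17:35821463-35821712, plus strand: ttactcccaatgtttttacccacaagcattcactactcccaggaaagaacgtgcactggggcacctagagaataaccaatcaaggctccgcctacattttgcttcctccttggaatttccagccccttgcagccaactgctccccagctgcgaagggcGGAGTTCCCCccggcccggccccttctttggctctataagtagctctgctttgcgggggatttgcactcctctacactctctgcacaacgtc
Egr2, chr10:67537789-67537818, plus strand: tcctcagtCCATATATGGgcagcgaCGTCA

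In the Fos window, TGACG, the core of the cAMP response element, ended 125 and 62 bases before the start, an NF-kB site 205 bases and a TATAAA box 28 bases before it. The Ier3 window held an NF-kB site that ended 83 bases before the start. The Egr2 stretch lies 80 to 51 bases before 1 of its 5 annotated starts and holds a CArG box, the site of serum response factor, followed by TGACG on the opposite strand. A CArG box stood in 4 of the 5 Egr2 windows, which overlap in part and hold 2 distinct boxes, and in 1.47% of all 32841 windows, and of the member genes only Egr2 had one within these 250 bases. TGACG was found before 5 member genes (Fos, Fosb, Junb, Egr2 and Atf3), with 17.8% of all windows holding it. An NF-kB site was found before 3 of them (Fos, Fosb and Ier3), against 3.9% of all windows, and the Egr site GCGNGGGCG before Fosb alone, against 4.7%. The AP-1 site TGANTCA (6.75% of all windows) and the full element TGACGTCA (1.55%), of which TGACG is a part, were matched in 0 of the 7 genes, and TATAAA (12.4%) in Fos alone. The Jun window held no match to any of the 7 motifs. A match describes these letters and is no evidence of a bound factor.

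Within the Fos family, Fos, the founding AP-1 subunit, was measured most precisely, since its probe (chromosome 12, 86817900 to 86817959, mm9, as for all positions of probes here) was printed in 10 spots. Its relative signal was 2.57 ± 0.0808 in KO DSS (SD over 9 spots, 1 spot being flagged by the scanner software), 4.74 ± 0.164 in WT DSS, 3.74 ± 0.118 in KO naive and 3.63 ± 0.107 in WT naive colon (SD over 10 spots each). The spots ran from 2.38 to 2.65 in KO DSS, 4.43 to 5.01 in WT DSS, 3.47 to 3.87 in KO naive and 3.40 to 3.79 in WT naive colon. Thus KO DSS spots lay below, and WT DSS spots above, the spots of both naive arrays, which overlapped each other. These spots repeat 1 RNA pool and say nothing of the spread between mice.

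**Figure D1:**
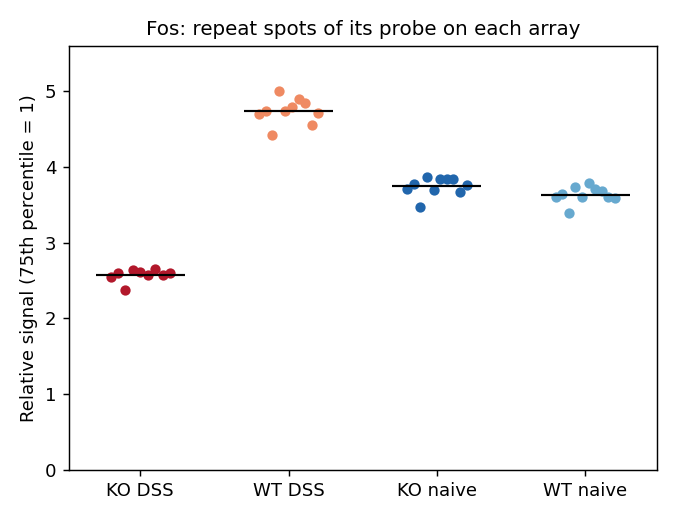
Relative signal of Fos in each repeat spot of its probe (vertical axis, 75th percentile of the array = 1) on the KO DSS, WT DSS, KO naive and WT naive arrays. Points are spots, 9 for KO DSS and 10 for each other array, and lines are means over spots. The KO DSS spots sit between 2.38 and 2.65, below all others, and the WT DSS spots between 4.43 and 5.01, above all others.

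Fosb, a close relative of Fos, had a lower signal that followed the same order (chromosome 7, 19888168 to 19888227, minus strand): 0.133 in KO DSS, 0.201 in WT DSS, 0.192 in KO naive and 0.169 in WT naive colon. KO DSS was the lowest array for Fosb as for Fos, and no neighbours in this order were more than 2 scanner errors apart. The scanner error is the error that the scanner software assigns to a spot, near 10% for a bright one. For Fos it is the error of a mean over its repeat spots, 3.16% to 3.33%, so smaller differences pass 2 scanner errors. Fosl1, which encodes the AP-1 subunit Fra-1 (chromosome 19, 5455496 to 5455555), had 0.0635 in KO DSS, 0.109 in WT DSS, 0.0572 in KO naive and 0.04996 in WT naive colon. WT DSS alone stood apart for Fosl1, the other 3 arrays each lying within 2 scanner errors of their neighbour.

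Among the measured members, Jun and Junb varied least. Jun, the main partner of Fos in AP-1 (chromosome 4, 94716928 to 94716987, minus strand), had a relative signal of 6.64 in KO DSS, 7.38 in WT DSS, 8.55 in KO naive and 7.72 in WT naive colon. Junb, a Jun family member with weaker transactivation (chromosome 8, 87501881 to 87501940, minus strand), had 0.181 in KO DSS, 0.197 in WT DSS, 0.153 in KO naive and 0.155 in WT naive colon. For both genes the highest array exceeded the lowest by 1.29-fold, and no step between neighbours passed 2 scanner errors. Both DSS arrays were below both naive arrays for Jun and above them for Junb, but WT DSS was above WT naive for Jun once each array was set to its median, and both DSS arrays were below their naive arrays for Junb once reference genes set the scale.

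Of the Egr genes, Egr1 (chromosome 18, 35024395 to 35024454), a zinc finger factor that growth factors and injury induce, had a relative signal of 1.41 in KO DSS, 2.37 in WT DSS, 0.879 in KO naive and 0.737 in WT naive colon. Egr2, a relative with roles in nerve and lymphoid cells (chromosome 10, 67004798 to 67004857), had 0.119 in KO DSS, 0.103 in WT DSS, 0.0444 in KO naive and 0.0278 in WT naive colon. For both genes both DSS arrays were above both naive arrays, and WT naive was the lowest. They differed at the top: Egr1 was highest in WT DSS, 0.75 on the log2 scale above KO DSS, whereas the Egr2 values of KO DSS and WT DSS differed by 0.21, about 1 scanner error (0.21). Egr3, the remaining Egr gene (chromosome 14, 70479222 to 70479281), gave 0.00317 in KO DSS, 0.00248 in WT DSS, 0.00337 in KO naive and 0.00368 in WT naive colon, all not well above background, and so no fold change is given for it.

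Atf3, a bZIP protein that stress and Toll-like receptor signals induce and that represses many inflammatory genes (chromosome 1, 192994547 to 192994606, minus strand), had a relative signal of 1.48 in KO DSS, 1.88 in WT DSS, 1.63 in KO naive and 1.13 in WT naive colon. WT naive was the lowest array and WT DSS the highest, with both KO arrays between them. Ier3 (chromosome 17, 35959528 to 35959587), which tumour necrosis factor and NF-kB induce, had 1.06 in KO DSS, 0.707 in WT DSS, 0.454 in KO naive and 0.466 in WT naive colon. Here KO DSS was above WT DSS by more than 2 scanner errors, and both were above the naive arrays, which differed by 0.04 on the log2 scale, within the scanner error (0.21). The part of each gene (exon, coding sequence or UTR) under these probes was not looked up, since no mm9 annotation was used.

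**Figure D2:**
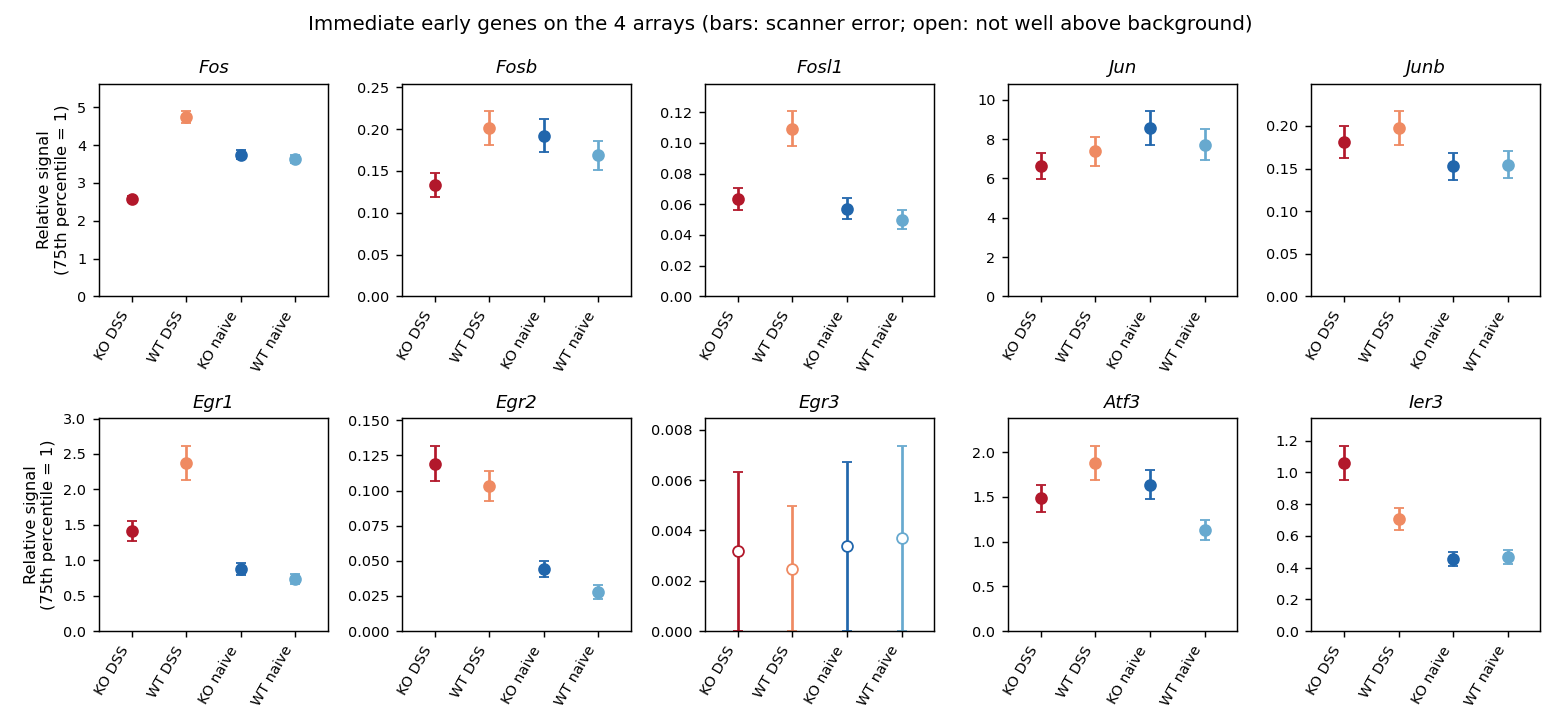
Relative signal (vertical axes, 75th percentile of the array = 1, each starting at 0) of the 10 genes on the KO DSS, WT DSS, KO naive and WT naive arrays, in that order along each horizontal axis. Bars are the scanner error, which for Fos is the smaller error of a mean over its repeat spots, and open points are not well above background. WT DSS is the highest array for 6 of the 9 measured genes, KO DSS for Egr2 and Ier3, and KO naive for Jun.

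Across the 9 measured genes, WT DSS was the highest array for 6, KO DSS for 2 (Egr2 and Ier3), KO naive for 1 (Jun) and WT naive for 0. The lowest array was KO DSS for 3 genes (Fos, Fosb and Jun), WT DSS for 0, KO naive for 2 (Junb and Ier3) and WT naive for 4 (Fosl1, Egr1, Egr2 and Atf3). The genes thus did not share 1 order. These probes hybridise differently, so the level of 1 gene is not set against that of another.

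The first comparison asked what DSS did in each genotype. In WT colon, 3 of the 9 measured genes were at least 2-fold higher with DSS (Egr2 3.70-fold, Egr1 3.22-fold and Fosl1 2.19-fold) and 0 were 2-fold lower, against 3.4% of all 22189 genes higher and 5.23% lower. With normexp background correction Fosl1 was under 2-fold (0.95 on the log2 scale) and 2 genes were counted. Egr2 kept its call there, at 1.355 on the log2 scale against 1.89 in the main analysis. Its WT naive signal of 0.0278, with a scanner error of 17.1%, was near 0.0165, the lowest signal well above background on that array. A gene counts as higher here when it is also well above background on the brighter array. Below that threshold, Atf3 (1.66-fold), Ier3 (1.52-fold) and Fos (1.30-fold) were also higher by more than 2 scanner errors, but on the log2 scale they were at 0.15 (Atf3), 0.02 (Ier3) and -0.20 (Fos) when reference genes set the scale. The Fos ratio, 0.38 on the log2 scale, had a scanner error of 0.06 from repeat spots, against 0.20 for Atf3. With an error of the size of Atf3, it would not have passed 2 scanner errors. The WT log2 ratios were above 0 for 8 of 9 genes with a median of 0.60, beside a median of -0.02 over all genes, of which 47.9% were above 0. When scaled to reference genes, 4 of the 9 were below 0 and the median was 0.02, beside -0.61 over all genes.

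In KO colon, 2 of the 9 genes were at least 2-fold higher with DSS (Egr2 2.68-fold and Ier3 2.33-fold) and 0 were 2-fold lower, against 5.67% of all genes higher and 5.02% lower. With normexp Egr2 was at 1.06 on the log2 scale, just above 2-fold. Egr1 was 1.61-fold higher in KO DSS than in KO naive colon. Fos and Fosb were lower in KO DSS than in KO naive colon, with log2 ratios of -0.54 and -0.53, each by more than 2 scanner errors (scanner errors of the ratios 0.07 and 0.21). Fosl1 (0.15), Jun (-0.36), Junb (0.25) and Atf3 (-0.14) stayed within 2 scanner errors. The KO log2 ratios were above 0 for 5 of 9 genes, with a median of 0.15 (-0.16 when scaled to reference genes) beside -0.13 over all genes, of which 38.1% were above 0.

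With DSS given, KO and WT colon differed by less than 2-fold for all 9 genes, so that 0 were counted as higher and 0 as lower, against 5.09% of all genes higher and 2.2% lower. The genes that came closest to the threshold were lower in KO: Fos by 1.84-fold, Fosl1 by 1.72-fold, Egr1 by 1.68-fold and Fosb by 1.51-fold, each by more than 2 scanner errors. Ier3 was the exception, 1.497-fold higher in KO DSS than in WT DSS colon. Of the 9 log2 ratios of KO over WT under DSS, 7 were below 0, with a median of -0.34 beside -0.09 over all genes, of which 39.3% were above 0.

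In naive colon, 0 of the 9 genes reached 2-fold in either direction between KO and WT, against 1.13% of all genes higher and 1.04% lower. Egr2 (1.60-fold) and Atf3 (1.45-fold) were higher in KO naive than in WT naive colon by more than 2 scanner errors. The other 7 ratios were within 2 scanner errors, from -0.04 for Ier3 to 0.26 for Egr1 on the log2 scale. With normexp the Egr2 ratio was 0.40 on that scale (main 0.67). The median over the 9 genes was 0.19, beside 0.02 over all genes.

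**Figure D3:**
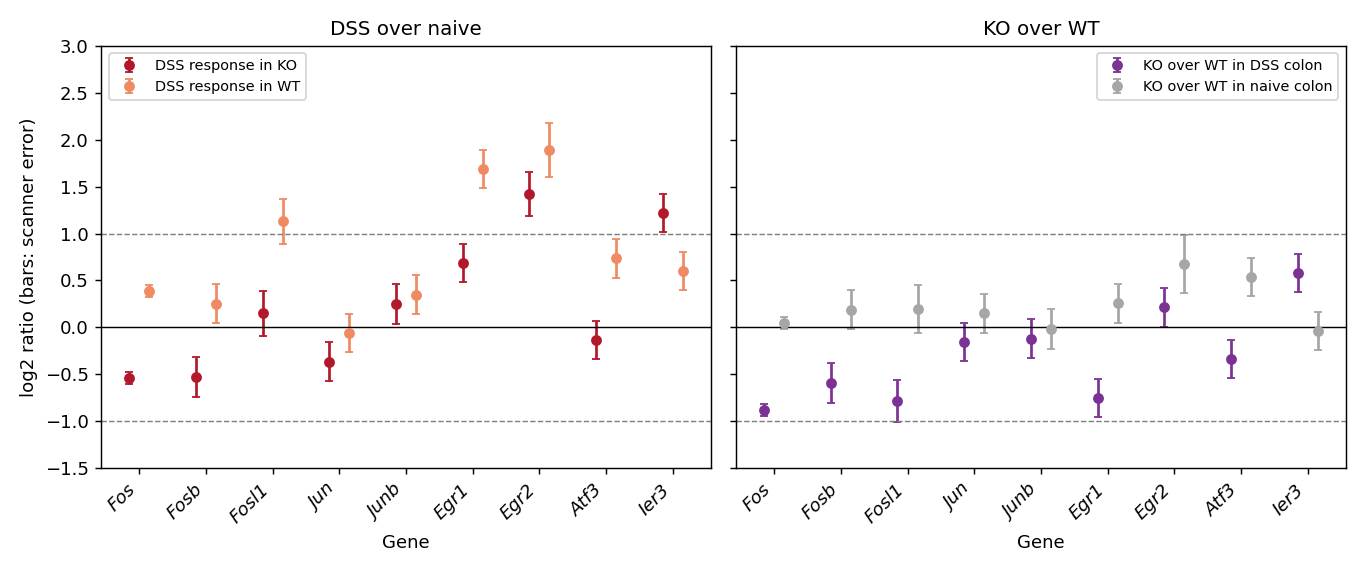
Log2 ratios of the 9 measured genes, with DSS over naive on the left (KO and WT) and KO over WT on the right (DSS and naive colon). Bars are scanner errors and dashed lines mark 2-fold. On the left Egr2 is above the line in both genotypes, Egr1 and Fosl1 in WT and Ier3 in KO, and on the right no gene passes either line.

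These comparisons share arrays, so the ratios of a gene are not independent of each other. The DSS response in KO minus that in WT was -0.92 for Fos, -0.78 for Fosb, -0.98 for Fosl1, -0.30 for Jun, -0.10 for Junb, -1.01 for Egr1, -0.46 for Egr2 and -0.87 for Atf3 on the log2 scale, and 0.62 for Ier3. It was below 0 for 8 of 9 genes with a median of -0.78, beside a median of -0.10 over all genes, of which 59.4% were below 0. When scaled to reference genes, the median was -0.51 over the members and 0.17 over all genes. With 4 arrays this difference leaves no residual degree of freedom, and so it was not tested.

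The mean effects of DSS and of genotype were tested with limma on all 4 arrays, in an additive model that leaves 1 residual degree of freedom. That residual is the difference between the DSS responses of the genotypes. The p-values of this model, also with other eBayes settings or filters, therefore do not measure the spread between mice. They were adjusted over all 22189 genes by the Benjamini-Hochberg method. No gene passed an adjusted p of 0.05 for either effect in this limma fit, members included, while Egr2 and Ier3 passed for DSS with a variance trend and robust eBayes. At an unadjusted p under 0.05, 3 of the 9 members were counted for the mean DSS effect, against 18.5% of all genes (4098), and 0 for the mean genotype effect, against 3.84% (853). The 3 were Egr2, with a mean log2 effect of 1.65 ± 0.205 (SE) and limma adjusted p = 0.209, Ier3 with 0.91 ± 0.235 and adjusted p = 0.237, and Egr1 with 1.19 ± 0.324 and adjusted p = 0.243. The other 6 members had limma adjusted p-values of 0.377 to 0.895 for DSS. For the mean genotype effect the limma adjusted p was 0.999 for all 9 members, with log2 effects from -0.42 for Fos to 0.44 for Egr2.

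Scaling decided the sign of several ratios. With each array set to the median of 8 reference genes, a choice made after seeing the data, the ratios of all genes shifted by -0.31 for DSS in KO, by -0.58 for DSS in WT, by 0.12 for KO over WT under DSS and by -0.16 in naive colon. That median was taken over signal levels and fell between B2m and either Gapdh or Rplp0 on each array. B2m rose with DSS, with log2 ratios of 0.82 in KO and 0.68 in WT. In KO the level used thus rose with DSS, while the median of the 8 genes' own DSS ratios was -0.08 (0.42 in WT). The sign changes below depend on that choice of level. Every ratio of a comparison moves by the same amount under this scaling, so medians of gene lists nearer to 0 than that change sign too. The DSS response in KO turned to -0.16 for Fosl1 and -0.07 for Junb, and that in WT to -0.20 for Fos, -0.33 for Fosb and -0.24 for Junb. In naive colon KO over WT turned to -0.11 for Fos and -0.01 for Jun, and the difference of the DSS responses to 0.17 for Junb. Fosl1 in WT and Ier3 in KO, which kept their direction, were then under 2-fold, at 0.55 and 0.91 on the log2 scale. With each array set to its median, the DSS response of Jun in WT turned to 0.08, and with normexp its ratio of KO over WT under DSS turned to 0.02. The lower signals in KO than in WT colon under DSS kept their direction for Fos (-0.97 to -0.77), Fosl1 (-0.88 to -0.67), Egr1 (-0.84 to -0.64) and Fosb (-0.71 to -0.48) under median, quantile and reference-gene scaling and normexp. The other alternatives cannot move the value of a gene with 1 probe.

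Partners of Fos and Jun were followed through 13 further bZIP genes of the AP-1 network, all measured. In KO colon 4 of them were at least 2-fold higher with DSS and in WT colon 2, with 0 lower in either, against 5.67% of all genes higher in KO and 3.4% in WT. The medians were 0.58 in KO and -0.04 in WT. Batf, a bZIP factor of lymphoid and dendritic cells that pairs with Jun proteins, had a relative signal of 0.386 in KO DSS, 0.152 in WT DSS, 0.0764 in KO naive and 0.0561 in WT naive colon, a log2 ratio for DSS of 2.34 in KO and 1.44 in WT. Batf2 was 2-fold higher in WT only by count (0.63 in KO and 1.16 in WT), and Jdp2, Batf3 and Atf7 in KO only by count (1.16, 1.12 and 1.49 in KO against -0.08, 0.41 and 0.40 in WT). Under DSS, Batf (1.34 on the log2 scale), Atf7 (1.04) and Maf (1.03) were 2-fold higher in KO than in WT colon, and 0 of the 13 were 2-fold lower, against 5.09% of all genes higher and 2.2% lower. Fosl2, the gene of Fra-2, had log2 ratios for DSS of -0.46 in KO and -0.40 in WT, and Jund had -0.65 in KO and -0.04 in WT.

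Of 28 other immediate early genes, 26 were measured (Nr4a3 and Egr4 were not well above background on any array). With DSS, 0 were 2-fold higher and 1 lower in KO, and 1 was higher and 2 lower in WT colon, against 5.67% of all genes higher and 5.02% lower in KO and 3.4% higher and 5.23% lower in WT. The medians were -0.09 in KO and 0.02 in WT. Arc, best known as a synaptic activity gene, was the one higher in WT: its relative signal was 0.118 in KO DSS, 0.183 in WT DSS, 0.139 in KO naive and 0.0857 in WT naive colon. Sgk1, a kinase that regulates sodium transport, was 2-fold lower in both genotypes, at 5.25 in KO DSS and 6.15 in WT DSS against 11.9 in KO naive and 15.03 in WT naive colon. Ctgf, a matricellular gene, was 2-fold lower with DSS in WT (-1.11) and not in KO (-0.22). Klf4, a factor of differentiated epithelium, had -0.87 in KO and -0.17 in WT, and Plk3, a stress kinase, -0.99 in KO and -0.56 in WT. Between KO and WT colon 0 of the 26 differed by 2-fold, with or without DSS.

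Genes that MAPK signalling induces and that feed back on it gave 16 measured of 17 (Spred3 was not well above background on any array). With DSS, 1 was 2-fold higher in KO and 2 in WT colon, with 0 lower, against 5.67% of all genes higher in KO, near the list's own share, and 3.4% in WT. The medians were 0.01 in KO and 0.11 in WT. Dusp6, the phosphatase of ERK, had a relative signal of 5.63 in KO DSS, 6.34 in WT DSS, 3.31 in KO naive and 3.14 in WT naive colon, log2 ratios for DSS of 0.76 in KO and 1.01 in WT. Phlda1 had ratios of 0.73 in KO and 1.11 in WT. Both were thus highest in WT DSS, as was Egr1. Dusp2, a phosphatase of activated leukocytes, had instead 1.27 in KO DSS, 0.4996 in WT DSS, 0.363 in KO naive and 0.268 in WT naive colon, and Spry2, an inhibitor of receptor tyrosine kinase signals, was also 2-fold higher in KO than in WT under DSS (log2 1.16).

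Among the regulators upstream of these genes (serum response factor, its partners, MAP kinases, CREB and the Egr repressors), all 17 were measured. With DSS, 2 were 2-fold higher in KO and 0 in WT colon, against 5.67% of all genes in KO and 3.4% in WT, and 0 were lower. The medians were -0.17 in KO and 0.10 in WT. Crem, a CREB family gene with an inducible repressor form, had log2 ratios of 1.76 in KO and 0.89 in WT, and Elk3, a ternary complex factor, had 1.05 in KO and 0.15 in WT. Srf was lower with DSS in both, at -0.54 in KO and -0.35 in WT. Nab2, a repressor that Egr factors induce, had 0.51 in KO and 0.48 in WT.

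Feedback genes of NF-kB and STAT3 signalling were measured for 13 of 14. With DSS, 3 were 2-fold higher in KO and 2 in WT colon, with 0 lower, against 5.67% of all genes higher in KO and 3.4% in WT. The medians were 0.26 in KO and 0.18 in WT. Socs3, a STAT3-induced inhibitor of cytokine signals, had a relative signal of 11.53 in KO DSS, 7.34 in WT DSS, 1.35 in KO naive and 1.24 in WT naive colon. Tnip3, an inhibitor of NF-kB signalling, had log2 ratios of 1.66 in KO and 1.49 in WT, and Nfkbie 1.35 in KO and 0.75 in WT. All 3 were higher in KO DSS than in WT DSS, as was Ier3. Not every gene of the list was: 10 of the 13 log2 ratios of KO over WT under DSS were above 0, and the lowest was -0.47.

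Genes that AP-1 is known to drive in other settings gave 19 measured of 20. With DSS, 13 were 2-fold higher in KO and 14 in WT colon and 0 were lower, against 5.67% of all genes higher in KO and 3.4% in WT. The medians were 2.65 in KO and 1.90 in WT, or 2.38 and 1.79 with Il6 and Mmp9, which were not well above background in naive colon, at their bounds. Under DSS, 11 of the 19 were 2-fold higher in KO than in WT colon and 0 were lower (median 1.23), against 5.09% of all genes higher. Mmp10, a stromelysin that epithelium and stroma make in wounds, had 6.30 in KO DSS and 1.73 in WT DSS against 0.0367 in KO naive and 0.0429 in WT naive colon. In KO DSS colon these genes were therefore mostly higher than in WT DSS colon, while Fos, Fosb, Fosl1 and Egr1 were lower. The list's 3 genes of EGF receptor ligands, named after their values were seen, did not share 1 order. Areg had 1.36 in KO DSS, 1.95 in WT DSS, 0.844 in KO naive and 0.886 in WT naive colon. Hbegf had 1.154 in KO DSS, 1.48 in WT DSS, 0.715 in KO naive and 0.599 in WT naive colon. Ereg had 4.51 in KO DSS, 1.80 in WT DSS, 0.314 in KO naive and 0.345 in WT naive colon. Areg and Hbegf were thus highest in WT DSS and Ereg in KO DSS colon.

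**Figure D4:**
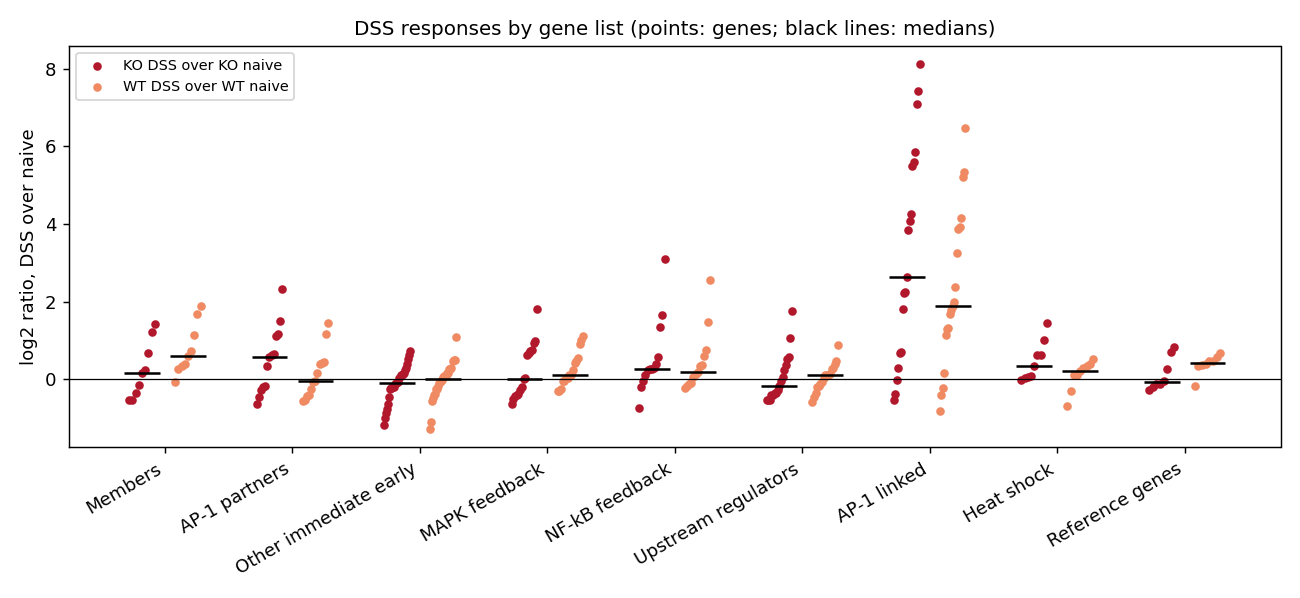
Log2 ratio of DSS over naive (vertical axis) in KO and in WT colon, for the 9 measured members and 8 gene lists. Points are genes, at their measured values also where a naive array was not well above background, and black lines are medians. The AP-1 linked genes have the highest medians (2.65 in KO and 1.90 in WT), and the members have 0.15 in KO (-0.16 when scaled to reference genes) and 0.60 in WT (0.02 when scaled to reference genes). The medians of the reference genes' own ratios are -0.08 and 0.42, which differ from the level that this scaling used.

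Because immediate early genes can respond to tissue handling, 10 heat shock genes were listed, of which 9 were measured. With DSS, 2 were 2-fold higher in KO (Hsph1 1.46 and Hspa1a 1.01 on the log2 scale) and 0 in WT colon, where Hsph1 had -0.68 and Hspa1a -0.30, against 5.67% of all genes higher in KO and 3.4% in WT. The list's medians were 0.34 in KO and 0.21 in WT. Hsph1 had a relative signal of 5.39 in KO DSS, 1.98 in WT DSS, 1.96 in KO naive and 3.16 in WT naive colon. Hspa1a had the same order, which no member had, and the order of Hspb1 also matched no member. The other measured heat shock genes each shared the order of a member. Hspa8 and Hspd1 had that of Egr1 and Fosl1, Dnajb1 that of Atf3, and Hspe1 that of Egr2. Hspa5 and Hsp90aa1 had that of Ier3. The part of tissue handling in the members' values was not tested.

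Markers of the colon's cell types differed between the groups too. The summed relative signal of 7 smooth muscle markers was 185 in KO DSS, 301 in WT DSS, 311 in KO naive and 319 in WT naive colon, and all 7 were lower in KO DSS than in WT DSS, as Fos was. The sum of 10 colonocyte markers was 349 in KO DSS, 470 in WT DSS, 493 in KO naive and 432 in WT naive colon, again with all 10 lower in KO DSS than in WT DSS. Goblet cell markers (6 genes) summed to 313 in KO DSS, 388 in WT DSS, 464 in KO naive and 406 in WT naive colon. KO DSS was the lowest array for each of these epithelial and muscle sums, but not for every gene in them. The goblet gene Muc2 was lowest in WT DSS, at 35.2 against 46.7 in KO DSS. The goblet genes Tff3 and Agr2 and the colonocyte genes Krt20, Cdx2 and Cdh17 were lowest in WT naive colon.

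Stromal and leukocyte markers had the opposite order under DSS. The 6 fibroblast markers summed to 141 in KO DSS, 80.5 in WT DSS, 61.5 in KO naive and 76.8 in WT naive colon, and all 6 were higher in KO DSS than in WT DSS. The 9 macrophage markers summed to 44.8 in KO DSS, 31.9 in WT DSS, 25.7 in KO naive and 25.2 in WT naive colon. Of these, 8 of 9 were higher in KO DSS than in WT DSS. The 9 measured of 10 neutrophil markers summed to 71.6 in KO DSS, 32.7 in WT DSS, 42.8 in KO naive and 35.3 in WT naive colon. Most of the naive sums came from Csf3r, at 29.1 in KO DSS, 20.0 in WT DSS, 39.3 in KO naive and 32.4 in WT naive colon. Of the 9, 8 were higher with DSS in KO and 8 in WT, and 7 were higher in KO DSS than in WT DSS. Of these markers, S100a8, Cxcr2, Mmp8 and Retnlg were not well above background on at least 1 array. Endothelial markers (6 genes) summed to 5.62 in KO DSS, 5.24 in WT DSS, 5.09 in KO naive and 5.22 in WT naive colon. Kdr was the largest term of that sum on the arrays, at 2.56 in KO DSS, 3.50 in WT DSS, 3.39 in KO naive and 3.06 in WT naive colon, while the other 5 endothelial markers were all higher in KO DSS than in WT DSS (median of the 6 0.77 on the log2 scale). Lymphocyte markers (8 genes) summed to 5.45 in KO DSS, 4.45 in WT DSS, 4.93 in KO naive and 3.91 in WT naive colon. Ier3, Batf and Socs3 were higher in KO DSS than in WT DSS, in the same direction as the leukocyte and fibroblast sums. The part of cell composition in the members' values was not tested.

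The genes most like the members were searched over the 4 arrays, by the Euclidean distance of their centred log2 values to the median profile of the 9 members. That profile was -0.02 in KO DSS, 0.32 in WT DSS, -0.16 in KO naive and -0.42 in WT naive colon. The closest of 19333 other genes were Ect2, a regulator of cell division (distance 0.141), Mrpl11, a mitochondrial ribosomal protein gene (0.141), Gcat, an enzyme of threonine breakdown (0.142), and Mogat2, an enzyme of fat absorption (0.144), followed by the unnamed probe A_55_P2063146 (0.147). The members themselves lay 0.276 (Atf3) to 1.32 (Egr2) away, and for each member between 720 and 17572 other genes were closer to the median profile than it was. The median profile thus describes no single member well.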

How the data were processed

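The authors deposited Agilent Feature Extraction 11.5.1.1 files (per the submitters' processing notes), whose processed signal is an intensity after background subtraction and detrending, per the file headers, and a series table whose signal is that intensity divided by the array's 75th percentile, as checked on the values. Per the labels' protocols, 200 ng of total RNA was labelled with Cy3. The file headers give 1 slide and 1 scan date for the 4 arrays. Probe coordinates are those of mm9.

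Control spots (1377 per array) and outlier spots (129 to 136 of 43020) were left out; 0 were saturated. Spots of a probe were averaged as log2 signal relative to the 75th percentile. Of 39429 probes, 28719 passed the scanner's flag for well above background on 1 array or more, and the brightest kept probe stood for a gene (22189 genes). Log2 ratios between pairs of arrays had no test; a call needs a 2-fold ratio and a signal well above background on the brighter array, and a dim array is given its lowest well-measured signal. limma 3.58.1 in R 4.3.3 (data.table version 1.17.8) gave the mean DSS and genotype effects, with Benjamini-Hochberg adjustment over all genes; the fit was tested on simulated data. No count of molecules underlies these intensities, and the number of arrays limits the precision.

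The members and all 16 gene lists were chosen with earlier results of these data known. All members are named, and up to 4 genes of a list per comparison by the size of their log2 ratio, with exceptions stated; 1 gene that this rule names is not reported here. The alternatives were median and quantile scaling, normexp (offset 50), stricter and no filters on dim probes, mean of probes, the series table, folds of 1.5 and 4, measured dim values, and eBayes with trend and robust. Promoter windows came from RefSeq.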

Additional observations from a re-analysis of the deposited data

Results flagged for a closer look

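For 7 of the 9 measured genes, a ratio had opposite signs in the 2 groups it was taken in, and none of these differences was tested, since 1 array per group leaves no residual degree of freedom. The share of all genes with such opposite signs was not computed, so this count does not set the members apart. Of all genes, 59.4% had a difference of DSS responses below 0. The response to DSS was below 0 in KO and above 0 in WT colon for Fos (difference -0.925 on the log2 scale), Fosb (-0.78) and Atf3 (-0.873). The ratio of KO over WT was below 0 with DSS and above 0 in naive colon for the same 3 genes, where the difference is the same number, and for Fosl1 (-0.981), Egr1 (-1.006) and Jun (-0.301). For Ier3 it was above 0 with DSS and below 0 in naive colon (0.62). Many of the ratios behind these differences lay within 2 scanner errors of 0: with DSS, that of Atf3 in KO (-0.14) and of Fosb in WT (0.25), and for KO over WT, that of Atf3 under DSS (-0.34), those of Fos, Fosb, Fosl1, Egr1 and Ier3 in naive colon (-0.04 to 0.26) and both of Jun. The differences kept their sign for each of these 7 genes under the 4 alternatives that can move a gene with 1 probe (median, quantile and reference-gene scaling, and normexp). The opposite signs did not all remain: with reference genes setting the scale, the DSS response in WT was -0.20 for Fos and -0.33 for Fosb, and KO over WT in naive colon -0.11 for Fos and -0.01 for Jun, and with normexp KO over WT under DSS was 0.02 for Jun. No outlier could be sought with 1 array per group.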

How the results depend on the processing

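No paired analysis was possible because each group holds 1 array and the labels give no replicate numbers that groups share; for the same reason no array could be left out within a group. With a 1.5-fold threshold, 5 members were higher with DSS in WT, 4 were lower in KO than in WT under DSS and 1 was higher in KO naive than in WT naive colon. Over all 22189 genes these counts were 1726, 1247 and 698. With a 4-fold threshold 0 members were higher with DSS in KO and 0 in WT, against 419 and 205 of all genes. Scaling to reference genes left 1 member 2-fold higher with DSS in KO (main 2), against 872 of all genes (main 1258). For the mean DSS effect, eBayes with trend and robust passed 2 members (limma adjusted p = 0.0144 for Egr2 and 0.0395 for Ier3), and a filter asking for well above background on each of the 4 arrays passed 1 (Egr2, limma adjusted p = 0.0188). Other counts over members stayed within 1.5 times, 2 in place of 3 being higher with DSS in WT under normexp or reference genes; reference genes set the median difference of responses at -0.51 (main -0.78). Over all genes, limma passed 619 higher and 919 lower with trend and robust, 452 higher and 658 lower under that filter, and 12 higher and 1 lower with no filter; the genotype effect passed 7 higher with trend and robust. The cause was not tested. Of genes counted at 2-fold with DSS, the share higher was 53.1% in KO and 39.4% in WT, but 63.9% and 52.8% with normexp, and 25% and 7.68% with reference genes; median scaling gave 53% in WT. In naive colon it was 52.1%, 41.3% with reference genes and 64.7% under that stricter filter. The median DSS response of all genes in WT was -0.02, and 0.12 with median scaling. Signal over background limits Egr3, dim on every array.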
